A study of Mus musculus with 3 samples.

Results

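The genes of the EGF receptor family and its ligands were described in the mouse mammary carcinoma line JC, of which 3 cultured populations were sequenced. The members were the 3 receptor genes Egfr, Erbb2 and Erbb3 and the 6 ligand genes Areg, Ereg, Hbegf, Tgfa, Btc and Nrg1, chosen by name from the deposited table, so 9 of 55471 features. JC-WT is the population labelled WT for genotype and treatment. JC-P came from tumours grown in the mammary fat pad and taken at day 14, and JC-M3 came from lung lesions taken at day 28, after cells of JC-P origin had passed through 3 cycles of tail vein injection. All 3 populations carry the genotype label WT and were grown in the same medium before RNA extraction. The protocol, not the treatment label, gives the origin of JC-P, since that label reads metastasis for JC-P and JC-M3 alike. Each population is a single culture with 1 library, so no value has a replicate check and no significance test was possible.

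The EGF receptor family consists of cell surface tyrosine kinases that pair with each other when a ligand binds. Egfr binds amphiregulin, epiregulin, HB-EGF, TGF-alpha, betacellulin, EGF and epigen, Erbb3 binds neuregulins, and Erbb2 has no known ligand of its own and acts as a partner of the others. The ligands are made as membrane-anchored precursors that proteases of the ADAM family cut free, and the receptors signal through the RAS-ERK and PI3K-AKT cascades, which drive growth and survival of mammary epithelial cells.

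Levels are TPM, the authors' length-scaled abundance per gene, so levels of different genes can be ranked. Reads assigned to genes could be recovered from the TPM and came to 18093400 for JC-WT, 22132600 for JC-P and 23386400 for JC-M3. Measured genes were those with a 3-library mean of 1 TPM or more, a condition met by 14527 features and by 8 of the 9 members, all but Erbb3. Ratios are log2 ratios of TPM + 0.5, which shrinks the differences of low genes towards 0, and a call of higher or lower needed a ratio of 2-fold. Every ratio with JC-M3 has JC-M3 as the numerator, and the remaining one has JC-P over JC-WT. Beside it stands the plain log2 ratio with its exact 95% counting interval, which covers counting error only and not the variation between cultures. In bulk RNA, fewer cells that make a transcript and less transcript per cell cannot be told apart. Of the epithelial markers, the keratin gene Krt8 held most of the signal. It stood at 1503 TPM in JC-WT cells, 1873 TPM in JC-P cells and 681 TPM in JC-M3 cells, while Epcam and Cldn7 had 0 reads in all 3 libraries and Cdh1 had 0 reads in JC-WT cells, 25 reads in JC-P cells and 21 reads in JC-M3 cells.

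Of the 2 measured receptor genes, Egfr differed more between the libraries and Erbb2 was the more abundant in each. Egfr stood at 2.58 TPM in JC-WT cells, 4.26 TPM in JC-P cells and 8.03 TPM in JC-M3 cells, from 157, 317 and 624 reads in the same order. The 3 levels were separated by more than counting error, and JC-M3 was the highest. Between JC-M3 and JC-WT the log2 ratio was 1.47, past the 2-fold threshold, with a plain log2 ratio of 1.64 (1.38 to 1.90). Each single step lay within 2-fold, with a log2 ratio of 0.63 between JC-P and JC-WT (plain 0.72, 0.44 to 1.01) and 0.84 between JC-M3 and JC-P (plain 0.91, 0.72 to 1.11). Egfr remained a low transcript, above 21.01% of the 11405 measured protein-coding genes in JC-M3. It lies on chromosome 11 from 16752203 to 16918158 on the forward strand (GRCm38).

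The Egfr promoter is shown because Egfr was the member called higher in JC-M3 than in JC-WT. The window is the 250 bases before the RefSeq start (GRCm38.p6, chr11:16751953-16752202, forward strand). Capitals mark a GC box.
Egfr: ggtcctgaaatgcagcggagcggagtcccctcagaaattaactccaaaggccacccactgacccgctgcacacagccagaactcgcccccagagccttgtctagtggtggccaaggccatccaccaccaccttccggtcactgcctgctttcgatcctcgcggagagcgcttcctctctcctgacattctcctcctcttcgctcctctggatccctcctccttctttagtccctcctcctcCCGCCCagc
The motifs searched on both strands were the cAMP response element TGACGTCA, the AP-1 site TGANTCA, the TATA box TATAAA and the GC box GGGCGG. They overlap in none of the windows shown. Of 32851 RefSeq windows of the same length, 1.55% hold the cAMP response element, 6.75% the AP-1 site, 12.4% the TATA box and 32.7% the GC box.

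Erbb2, the orphan receptor that pairs with the others, stood at 40.7 TPM in JC-WT cells, 37.4 TPM in JC-P cells and 30.7 TPM in JC-M3 cells. JC-M3 had the lowest level, and its log2 ratio over JC-WT was -0.40 (plain -0.41, -0.53 to -0.29), well within 2-fold. The ratio of Erbb2 to Egfr was 15.8 in JC-WT cells, 8.79 in JC-P cells and 3.82 in JC-M3 cells, so the make-up of the receptor transcripts differed more than their sum. Of the summed TPM of the 3 receptor genes, Erbb2 took 93.4% in JC-WT cells, 89.4% in JC-P cells and 78.0% in JC-M3 cells, and Egfr took 5.92%, 10.2% and 20.4%. The receptor sum itself was 43.6 TPM in JC-WT cells, 41.9 TPM in JC-P cells and 39.3 TPM in JC-M3 cells.

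Erbb3, the neuregulin receptor with a weak kinase, was near the limit of detection. It had 9 reads in JC-WT cells, 7 reads in JC-P cells and 26 reads in JC-M3 cells, or 0.279, 0.177 and 0.630 TPM. The plain log2 ratio of JC-M3 over JC-P was 1.83 (0.59 to 3.28), an interval wholly above 0, but the gene stayed below the minimum mean and was not called.

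**Figure D1:**
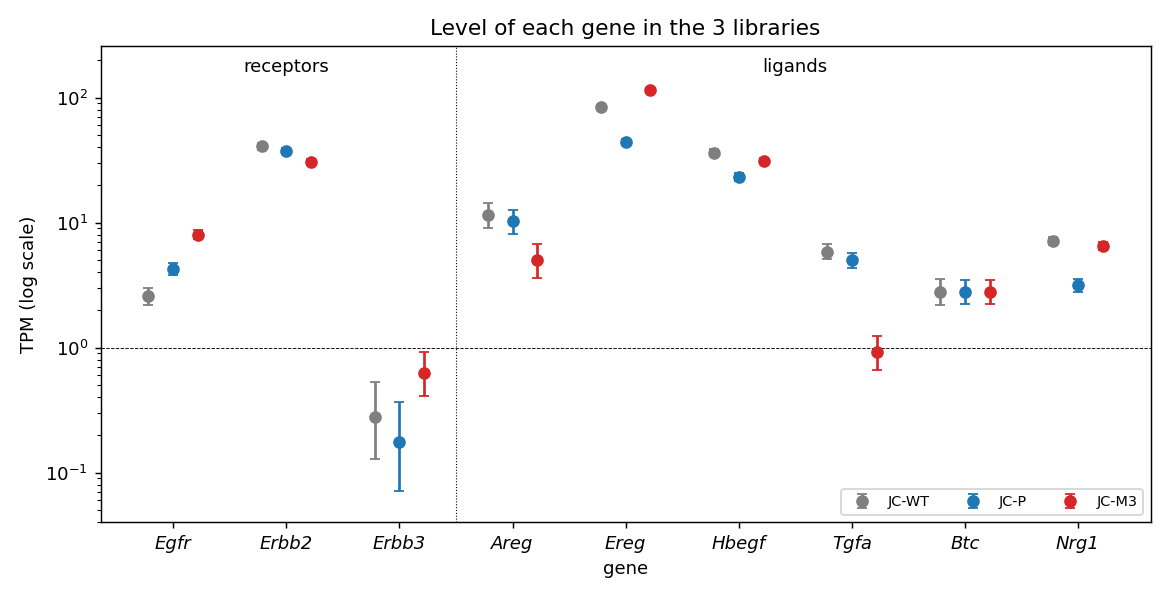
TPM of the 3 receptor genes and 6 ligand genes in the 3 populations (1 library each) on a log axis, with exact 95% Poisson counting intervals as bars and a dashed line at 1 TPM. Egfr is highest in JC-M3 (8.03 TPM), Tgfa is lowest there (0.921 TPM), and the 3 points of Btc lie level.

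Epiregulin was the most abundant member in every library, and its transcript differed in both steps. Ereg, which encodes a ligand of Egfr and ErbB4, stood at 83.6 TPM in JC-WT cells, 44.4 TPM in JC-P cells and 116 TPM in JC-M3 cells, from 1852, 1204 and 3275 reads. JC-P had the lowest level and JC-M3 the highest, with no overlap of the counting intervals. For JC-M3 over JC-P the log2 ratio was 1.37 (plain 1.38, 1.29 to 1.48), past the threshold. For JC-P over JC-WT it was -0.91 (plain -0.91, -1.02 to -0.81), just inside the threshold, and for JC-M3 over JC-WT it was 0.47 (plain 0.47, 0.39 to 0.55). Both steps use the same JC-P library, so a property of that library would enter them with opposite signs. Among measured protein-coding genes, Ereg ranked above 80.9% in JC-WT cells, 66.2% in JC-P cells and 87.5% in JC-M3 cells. It lies on chromosome 5 from 91074622 to 91093646 on the forward strand, and 141 of its 4128 exonic bases overlap the antisense gene Gm19610.

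Transforming growth factor alpha showed the widest difference of the measured members. Tgfa stood at 5.86 TPM in JC-WT cells, 5.02 TPM in JC-P cells and 0.921 TPM in JC-M3 cells, from 204, 214 and 41 reads. JC-M3 stood apart, and the intervals of JC-P and JC-WT overlapped. It was 5.45-fold lower in JC-M3 than in JC-P, with a log2 ratio of -1.96 (plain -2.45, -2.97 to -1.96), and 6.36-fold lower in JC-M3 than in JC-WT, with a log2 ratio of -2.16 (plain -2.67, -3.19 to -2.18). The interval of JC-P over JC-WT held no change (plain -0.22, -0.51 to 0.06). Tgfa lies on chromosome 6 from 86195223 to 86275719 on the forward strand, and 118 of its 6490 exonic bases overlap the antisense gene Gm43917.

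Amphiregulin, an Egfr ligand of the developing mammary duct, was also lowest in JC-M3. Areg stood at 11.5 TPM in JC-WT cells, 10.3 TPM in JC-P cells and 5.04 TPM in JC-M3 cells. Its transcript is short and these levels rest on 75, 82 and 42 reads, so the intervals are wide. Between JC-M3 and JC-WT the log2 ratio was -1.12 (plain -1.19, -1.77 to -0.63), past the threshold, an interval that reaches inside 2-fold, and -0.94 with a pseudocount of 2, where the call was lost. That of JC-M3 over JC-P was -0.96 (plain -1.03, -1.60 to -0.47), just inside it. JC-P and JC-WT did not differ beyond counting error (plain -0.16, -0.63 to 0.31). Areg lies on chromosome 5 from 91139599 to 91148432 on the forward strand.

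The promoter windows of Areg and Tgfa are shown because these were the members called lower in JC-M3 than in JC-WT. They are again the 250 bases before the RefSeq start (GRCm38.p6, forward strand), chr5:91139349-91139598 for Areg and chr6:86194972-86195221 for Tgfa. Capitals mark, in reading order, a cAMP response element, a GC box and a TATA box in Areg, and a pair of GC boxes in Tgfa.
Areg: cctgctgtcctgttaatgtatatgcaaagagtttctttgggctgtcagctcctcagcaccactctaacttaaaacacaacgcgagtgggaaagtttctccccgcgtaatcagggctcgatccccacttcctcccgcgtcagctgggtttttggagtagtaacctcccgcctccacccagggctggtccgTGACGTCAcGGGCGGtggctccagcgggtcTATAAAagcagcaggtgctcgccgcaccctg
Tgfa: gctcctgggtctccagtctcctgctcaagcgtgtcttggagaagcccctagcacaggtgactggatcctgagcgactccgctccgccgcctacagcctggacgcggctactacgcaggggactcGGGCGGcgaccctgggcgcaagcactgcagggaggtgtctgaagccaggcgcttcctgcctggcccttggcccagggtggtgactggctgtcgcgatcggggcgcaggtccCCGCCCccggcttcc
In Areg the cAMP response element begins 61 bases and the TATA box 31 bases before the start. No TATAAA, TGACGTCA or TGANTCA was found in the windows of Tgfa and Egfr. RefSeq windows were matched for 5 of the 9 members.

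The other 2 Egfr ligands among the members, Hbegf and Btc, stayed within 2-fold in every comparison. Hbegf, which encodes heparin-binding EGF-like growth factor, stood at 36.3 TPM in JC-WT cells, 23.1 TPM in JC-P cells and 31.2 TPM in JC-M3 cells. JC-P was the lowest, as for Ereg, with log2 ratios of -0.64 between JC-P and JC-WT (plain -0.65, -0.79 to -0.51) and 0.43 between JC-M3 and JC-P (plain 0.43, 0.30 to 0.57). Betacellulin showed no difference at this depth. Btc stood at 2.80 TPM in JC-WT cells, 2.79 TPM in JC-P cells and 2.81 TPM in JC-M3 cells, from 68, 83 and 87 reads. Between JC-M3 and JC-WT the interval of its plain log2 ratio was -0.47 to 0.48, so smaller differences were not detectable.

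Neuregulin 1, the ligand of ErbB3 and ErbB4, was lowest in JC-P. Nrg1 stood at 7.13 TPM in JC-WT cells, 3.15 TPM in JC-P cells and 6.49 TPM in JC-M3 cells, from 591, 319 and 687 reads. The log2 ratio of JC-P over JC-WT was -1.07 (plain -1.18, -1.38 to -0.98), past the threshold, and -0.97 when the median of its chromosome was subtracted. For JC-M3 over JC-P the log2 ratio was 0.94 (plain 1.04, 0.85 to 1.24), just inside the threshold, and JC-M3 and JC-WT did not differ beyond counting error (plain -0.14, -0.30 to 0.02). Nrg1 has many isoforms with different receptor-binding parts, and the gene-level value does not separate them. It lies on chromosome 8 from 31814551 to 32884029 on the reverse strand, and 482 of its annotated exonic bases overlap the antisense gene Gm26578. A second row with the symbol Nrg1 was listed at 0 in all 3 libraries.

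**Figure D2:**
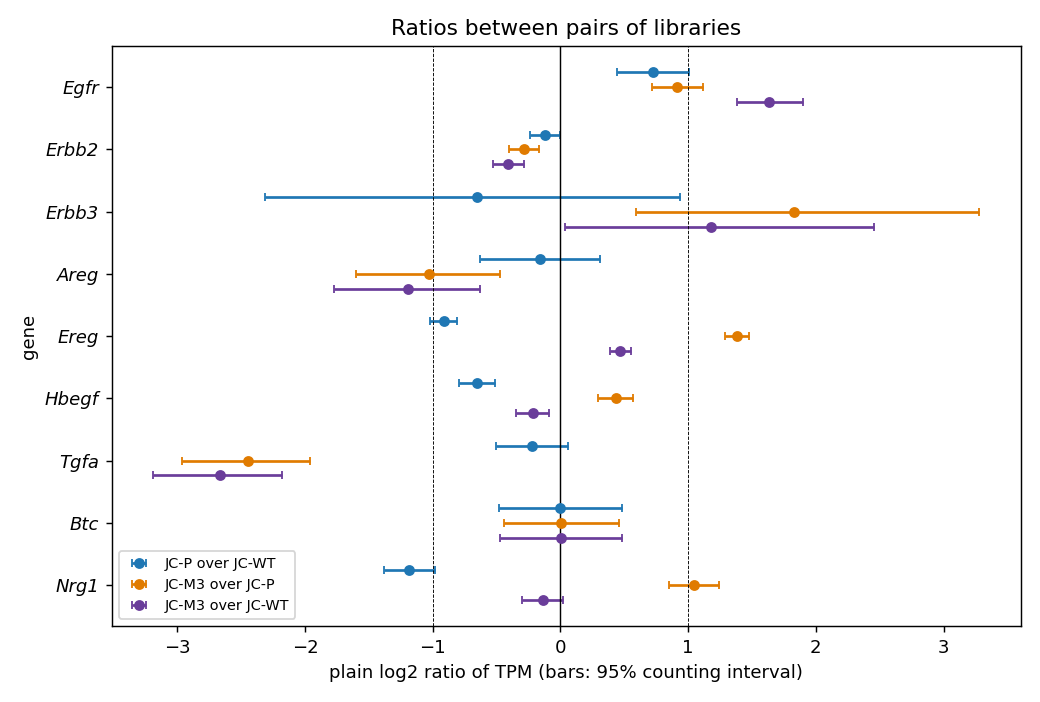
Plain log2 ratios of TPM for the 9 genes of each pair of libraries (JC-P over JC-WT and JC-M3 over each of the others), with exact 95% counting intervals as bars, a solid line at no change and dashed lines at 2-fold. Tgfa lies furthest below 0 in both comparisons of JC-M3, Egfr lies above 0 in all 3, and the wide bars of Erbb3 rest on 7 to 26 reads.

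Counted together, the called members went both ways. For JC-P over JC-WT, 0 of 8 measured members were called higher, beside 4.76% of all measured features, and 1 lower (Nrg1), beside 2.33%. In either direction 7.1% of features were called. Between JC-M3 and JC-P, 1 was called higher (Ereg), beside 3.82% of features, and 1 lower (Tgfa), beside 5.38%, with 9.2% in either direction. Between JC-M3 and JC-WT, 1 was called higher (Egfr), beside 6.14% of features, and 2 lower (Areg and Tgfa), beside 5.27%, with 11.4% in either direction. The member counts are small, and 3 of 8 against 11.4% is a description of these libraries, not a test. The median log2 ratio of the 8 members was -0.19 between JC-P and JC-WT, against 0.01 over all measured features. Between JC-M3 and JC-P it was 0.22, against -0.01, and between JC-M3 and JC-WT it was -0.18, against 0.00.

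Ligand transcripts as a whole were dominated by Ereg, and their sum followed it. The 6 ligand genes summed to 147 TPM in JC-WT cells, 88.7 TPM in JC-P cells and 162 TPM in JC-M3 cells. Without Ereg the sums were 63.6, 44.3 and 46.5 TPM, so the higher sum of JC-M3 relative to JC-P lay almost wholly in Ereg. Ereg took 56.8% of the sum in JC-WT cells, 50.03% in JC-P cells and 71.3% in JC-M3 cells. Hbegf took 24.6%, 26.04% and 19.3%, Areg 7.82%, 11.6% and 3.11%, and Tgfa 3.98%, 5.66% and 0.568%. These shares are of transcripts, and the amounts of released ligand were not measured.

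**Figure D3:**
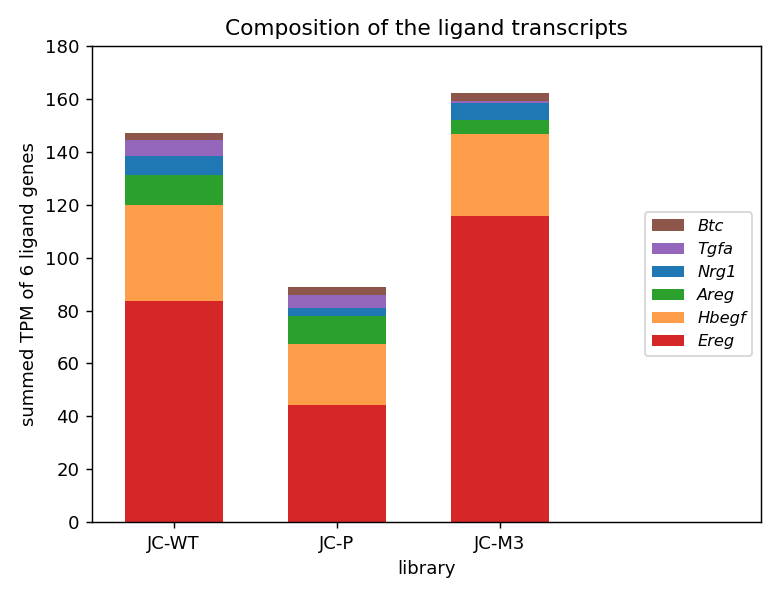
Stacked TPM of the 6 ligand genes in the 3 populations (1 library each, in the order JC-WT, JC-P, JC-M3), from 0. Ereg is the largest block in each bar, at 83.6, 44.4 and 116 TPM, and the Tgfa block is barely visible in JC-M3.

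By level, the same genes led and closed the order in each library, while the middle of the order differed. Ereg was first and Erbb3 last in all 3 libraries, and Erbb2 and Hbegf took ranks 2 and 3. Erbb2 stood above Hbegf beyond counting error in JC-P, but their intervals overlapped in JC-M3 and in JC-WT. Egfr ranked 8 in JC-WT cells, 6 in JC-P cells and 4 in JC-M3 cells, while Tgfa ranked 6, 5 and 8. Neighbours whose intervals overlapped were Nrg1 and Tgfa and also Btc and Egfr in JC-WT, Tgfa and Egfr and also Nrg1 and Btc in JC-P, and Nrg1 and Areg and also Tgfa and Erbb3 in JC-M3.

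The family genes outside the members were at or near 0, except epigen. Epgn, an Egfr ligand of epithelia, had 6 reads in JC-WT cells, 8 reads in JC-P cells and 97 reads in JC-M3 cells, or 0.619, 0.674 and 7.82 TPM. Its log2 ratio was 2.83 between JC-M3 and JC-P (plain 3.54, 2.502 to 4.79) and 2.90 between JC-M3 and JC-WT (plain 3.66, 2.49 to 5.14), so JC-M3 stood apart from the other libraries. Epgn in JC-M3 was at a level similar to that of Egfr itself. Egf had 21 reads in JC-WT cells, 21 reads in JC-P cells and 30 reads in JC-M3 cells. Nrg4 had 2, 3 and 2 reads, Nrg2 and Nrg3 had 0 reads throughout, and the receptor gene Erbb4 had 0, 0 and 2 reads. A count of 0 allows up to 3 reads, which for Erbb4 is 0.0369 TPM in JC-P cells and 0.0452 TPM in JC-WT cells.

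Epgn, Ereg, Areg and Btc lie side by side on chromosome 5 within 376 kb, the first 3 on the forward strand and Btc on the reverse strand, and their ratios differed. For JC-M3 over JC-P their log2 ratios were 2.83, 1.37, -0.96 and 0.00 in that order. Mthfd2l, a folate enzyme gene that ends 6.10 kb before Epgn, had a log2 ratio of -0.57. The measured chemokine genes further upstream had ratios of 0.49 (Cxcl5), -0.19 (Ppbp) and 0.79 (Cxcl1). The median over 713 measured protein-coding genes of chromosome 5 was 0.00.

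**Figure D4:**
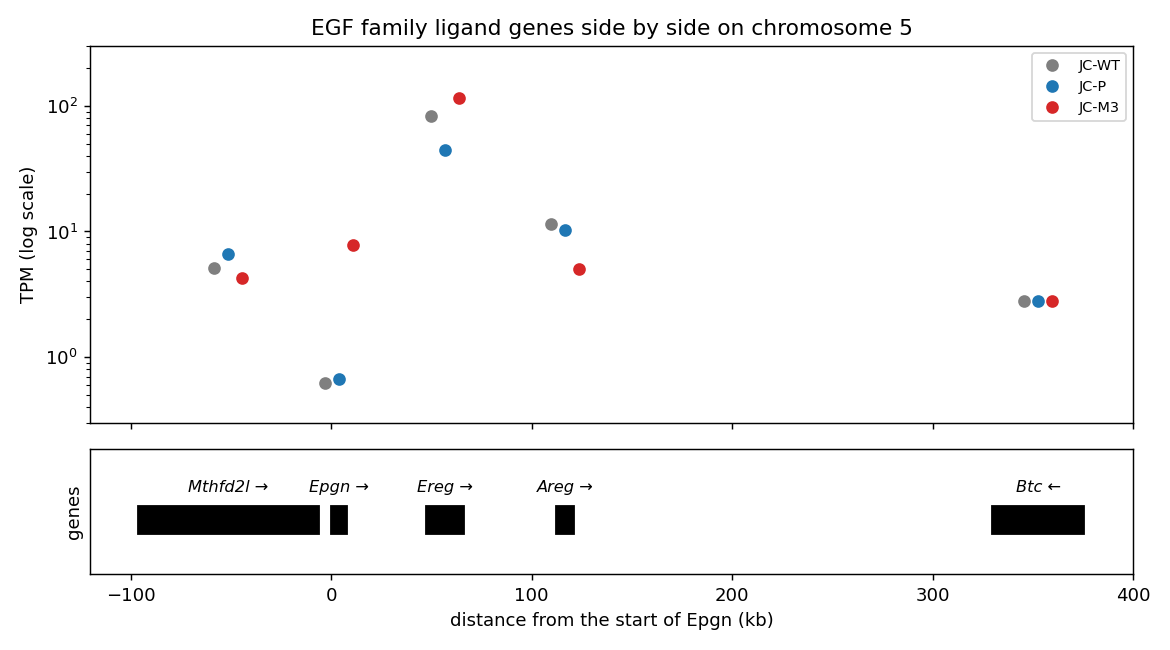
Top, TPM on a log axis of Mthfd2l, Epgn, Ereg, Areg and Btc in the 3 populations (points of a gene are set slightly apart). Bottom, the extent of each gene by distance from the start of Epgn in kb, with arrows for strand; Epgn and Ereg are highest in JC-M3, Areg is lowest there and Btc is level.

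In the machinery around the receptors the calls were near or below those over all features (7.1%, 9.2% and 11.4% in either direction, in the order used above). Of 10 measured genes among 11 ligand sheddases and their partners, 1 was called, Adam19, a protease known to cut neuregulin, at 9.98 TPM in JC-WT cells, 18.9 TPM in JC-P cells and 30.7 TPM in JC-M3 cells (log2 ratio 1.57 for JC-M3 over JC-WT). Adam17, the main sheddase of Egfr ligands, stood at 31.4, 37.1 and 29.2 TPM, and its cofactor genes Rhbdf1 and Rhbdf2 also stayed within 2-fold. Adam15 had the highest mean of the list, at 121, 128 and 146 TPM. Of 14 measured genes among 16 receptor inhibitors and turnover genes, 0 were called in any comparison. The highest mean among them was that of the ubiquitin ligase gene Nedd4, at 458 TPM in JC-WT cells, 509.5 TPM in JC-P cells and 402 TPM in JC-M3 cells, and the feedback inhibitor gene Errfi1 stood at 224, 219 and 267 TPM.

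In the cascades, 3 genes were called, Gab2, Rasa1 and Pik3cb. Of 19 adaptor and RAS-ERK genes, all measured, 0 were called in either single step, and 1 was called higher and 1 lower for JC-M3 over JC-WT, close to the 11.4% of all features. Gab2, a docking adaptor, stood at 2.99 TPM in JC-WT cells, 6.09 TPM in JC-P cells and 8.72 TPM in JC-M3 cells (log2 ratio 1.40). Rasa1, a RAS GTPase-activating protein gene, stood at 45.9, 36.2 and 22.1 TPM (log2 ratio -1.04). Mapk3, encoding the kinase ERK1, had the highest mean, at 167, 189 and 189 TPM. Of 12 PI3K-AKT genes, 1 was called higher, Pik3cb, a catalytic subunit gene. Pik3cb stood at 14.6 TPM in JC-WT cells, 14.2 TPM in JC-P cells and 36.9 TPM in JC-M3 cells. Its log2 ratio was 1.35 between JC-M3 and JC-P and 1.31 between JC-M3 and JC-WT. Of all measured features, 3.82% and 6.14% were called higher in these comparisons. Akt1 had the highest mean, at 930, 810 and 698 TPM.

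Among transcripts known to follow ERK activity, 1 was called and others lay just inside 2-fold. Of 20 measured of 21 ERK feedback and target genes, 0 were called for JC-P over JC-WT, where 14 lay below 0 and the median log2 ratio was -0.29. For JC-M3 over JC-P the median was 0.21, with 13 above 0, 0 called higher and 1 lower, and for JC-M3 over JC-WT it was -0.24, with 13 below 0 and 1 called lower. Over all measured features 5.38% were called lower for JC-M3 over JC-P, 5.27% were for JC-M3 over JC-WT, and the medians were about 0.01 from 0 or nearer. Just inside the threshold between JC-M3 and JC-WT were Spry2, a feedback inhibitor (log2 ratio -0.98), and Dusp1, a MAP kinase phosphatase gene (0.98), and between JC-P and JC-WT Plaur, the urokinase receptor gene (-0.92). The called gene was Spry1, a feedback inhibitor of receptor signalling, at 21.9 TPM in JC-WT cells, 18.3 TPM in JC-P cells and 6.92 TPM in JC-M3 cells (log2 ratio -1.34 between JC-M3 and JC-P, -1.60 between JC-M3 and JC-WT). Dusp6, the ERK phosphatase gene, stood at 79.5, 76.4 and 83.6 TPM. Ccnd1, the cyclin D1 gene, had the highest mean, at 871, 678 and 665 TPM.

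**Figure D5:**
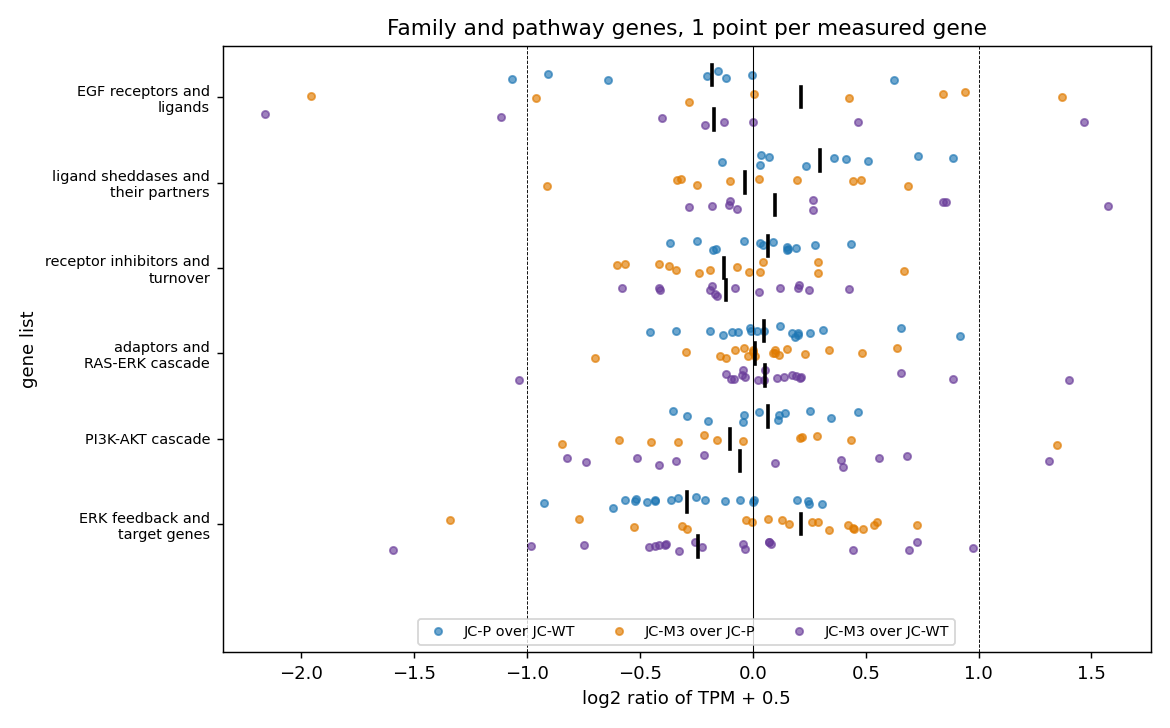
Log2 ratios of TPM + 0.5 for the measured members and 5 pathway lists, with 1 point per gene, colours for the 3 comparisons, black ticks at medians and dashed lines at 2-fold. Most pathway genes lie between the dashed lines. Of the 8 measured receptor and ligand genes 1, 2 and 3 lie outside them in the order of the legend, where 7.1%, 9.2% and 11.4% of all features do.

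Markers of cell identity and of other cell types also differed between the libraries, and their part in the receptor and ligand values was not tested. The 12 epithelial markers, 4 of them measured, summed to 1555 TPM in JC-WT cells, 1925 TPM in JC-P cells and 705 TPM in JC-M3 cells. Nearly all of this was Krt8. Krt18 was also lowest in JC-M3, at 48.6, 48.5 and 18.4 TPM in the order JC-WT, JC-P and JC-M3. Krt7 and Elf3 were not, with Krt7 at 1.74, 0.583 and 1.70 TPM and Elf3 at 1.26, 2.20 and 2.56 TPM. The 8 basal and myoepithelial markers, 1 of them measured (Acta2), summed to 18.3, 2.91 and 642 TPM in the same order. Acta2 alone made up 641.6 TPM in JC-M3. Of the unmeasured genes of that list, Krt5 had 14, 4 and 1 reads, Krt14 had 3, 0 and 0 reads, and Trp63 had 2, 9 and 20 reads. The 10 fibroblast markers, 7 of them measured, summed to 222, 418 and 1093 TPM, of which Col1a1 made up 132, 261 and 949 TPM. Between JC-M3 and JC-P, 2 of the 7 were called higher (Col1a1 and Col1a2), beside 3.82% of all measured features. In that comparison 3 were called lower (Col3a1, Pdgfra and Dpt), beside 5.38%, and Dcn and Pdgfrb stayed within 2-fold. Dcn stood at 1.24, 14.0 and 22.5 TPM and Pdgfrb at 48.7, 46.5 and 87.9 TPM. Col1a2 stood at 0.255, 0.661 and 4.40 TPM, so it was above 1 TPM only in JC-M3. Lum and Thy1 were listed at 0 in every library. The 10 endothelial markers, of which Cdh5 and Plvap were measured, summed to 8.02, 35.9 and 3.11 TPM, and Cdh5 had 2 reads in JC-WT cells, 490 reads in JC-P cells and 3 reads in JC-M3 cells. Kdr and Cldn5 of that list had 0 reads throughout. The sum was highest in JC-P, where Cdh5 (17.7 TPM) and Plvap (17.8 TPM) made up nearly all of it. Pecam1 had 5 reads in JC-WT cells, 10 reads in JC-P cells and 10 reads in JC-M3 cells. The 10 myeloid markers, of which Cd68 and Cd14 were measured, summed to 68.8, 50.6 and 72.7 TPM with Ptprc at 0 reads throughout, and the 7 lung epithelial markers, of which Ager was measured, to 1.57, 3.26 and 2.85 TPM with Sftpc at 0 reads. No lymphocyte or adipocyte marker was measured, with sums of at most 0.395 and 0.166 TPM.

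Genes with the pattern most like that of a called member were found by the distance between their pairs of log2 ratios (JC-P over JC-WT, then JC-M3 over JC-P) across the 3 libraries, among 8628 protein-coding genes averaging 10 TPM or more. Nearest to Ereg were Rnd1, the cytokine gene Lif and the zinc transporter gene Slc30a1, at distances of 0.06, 0.11 and 0.19. Nearest to Egfr were Selenop, Pfn2 and Filip1l, at 0.10, 0.10 and 0.13. Nearest to Tgfa were Tspan11, Deptor and Rap2a, at 0.04, 0.07 and 0.13. Nearest to Areg were Lbh, Efnb1 and Ap3b1, at 0.03, 0.04 and 0.05, and nearest to Nrg1 were Fmnl3, Tgif2 and Cbr2, at 0.07, 0.11 and 0.12. With 3 libraries such likeness is common and describes the values alone.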

How the data were processed

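Polyadenylated RNA of 3 cell populations was sequenced from stranded libraries, per the labels' protocols, and the authors deposited TPM per gene for 1 library each. FastQC 0.11.9, STAR 2.7.9a, featureCounts and the builds mm10 and GRCm38 are named, per the submitters' processing notes. The sources used here do not give the annotation release or the strand setting. Ratios were computed from TPM + 0.5 among features averaging 1 TPM or more and called at 2-fold. Multiplying TPM by exon length (GENCODE M21) and dividing by a fixed step per library gave whole reads, within 0.01, for 98.4% (JC-WT), 98.5% (JC-P) and 98.5% (JC-M3) of expressed genes. For Nrg1 the annotated length gave none, and 15433 bases, the one length between 500 and 20000 that gave whole reads in all libraries, was used. Exact Poisson and conditional (Clopper-Pearson) intervals at 95% and the 3-read limit cover counting error only. Of the 50-base windows of annotated member transcripts, at most 4.09% (Nrg1) also occur in other genes. For Nrg1 this check used the annotation of 10351 bases, not the 15433 bases that fitted the values. Named genes were the members, called pathway genes and the most abundant gene of each list, other family genes, measured markers and the 3 nearest patterns. Adam17, Rhbdf1, Rhbdf2, Errfi1, Dusp6, Spry2, Dusp1, Plaur, neighbours on chromosome 5 and some unmeasured markers were added after their values were seen. The members and lists were chosen with earlier results of these data known. Scripts were tested on simulated data. Alternatives covered scaling, pseudocount, filter, threshold and chromosome medians. The software was scipy 1.17.1, pandas 2.3.3 and numpy 2.4.6 in Python 3.11.15, with matplotlib 3.10.9 for figures.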

Additional observations from a re-analysis of the deposited data

How the results depend on the processing

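No paired analysis was possible because each group has 1 library, and for the same reason no library could be left out. Rescaling by the median of ratios, by the upper quartile or without mitochondrial features changed no member's call. Summing rows of a repeated symbol could not change any, since only Nrg1 had a second row and that row was 0 in every library. With a pseudocount of 0.1, JC-M3 over JC-P had 2 members higher (Nrg1 added) and 2 lower (Areg added). With a pseudocount of 2, the call of Nrg1 for JC-P over JC-WT was lost (0 lower) and 1 member stayed lower for JC-M3 over JC-WT, without Areg. Among the 3 members with a mean of at least 10 TPM, 0 were lower for JC-P over JC-WT, 0 lower for JC-M3 over JC-P, and 0 higher and 0 lower for JC-M3 over JC-WT, which leaves Ereg. At a 3-fold threshold, 0 members were lower for JC-P over JC-WT, 0 higher for JC-M3 over JC-P, and 0 higher and 1 lower (Tgfa) for JC-M3 over JC-WT. With chromosome medians subtracted, the call of Nrg1 was lost (-0.97). Of 162 member ratios recomputed, 157 moved by no more than the distance from the middle to the end of their counting interval. That allowance is wide for Erbb3. The other 5 moved further, all with pseudocount 2, and 0 called ratios changed sign. Over all features, the higher and lower calls with pseudocount 2 were 361 and 173 for JC-P over JC-WT (692 and 339 in the report's setting), 328 and 443 between JC-M3 and JC-P (555 and 781), 522 and 471 between JC-M3 and JC-WT (892 and 766). With a mean of at least 10 TPM they were 156 and 63, 154 and 269, and 247 and 293. With no filter they were 1288 and 647, 1024 and 1288, and 1544 higher. With 11 ligand genes the ligand sum of JC-M3 was 170.4 TPM in place of 162 TPM, through Epgn. Depth limits Areg, Btc and Erbb3 most, with at most 87 reads in a library.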

Other observations

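Genes next to Erbb2, which are amplified together with it in some human breast cancers, were looked at after the data were seen. Within 100 kb of Erbb2, the log2 ratios of JC-M3 over JC-WT were -0.16 for Stard3, -0.09 for Pgap3 and -0.21 for Mien1, against -0.40 for Erbb2. Mien1 stood at 152 TPM in JC-M3, against 175 TPM in JC-WT, and Stard3 at 27.5 TPM in JC-M3, against 30.7 TPM in JC-WT. Grb7, the adaptor gene on the far side of Mien1, was listed at 0 in all 3 libraries.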
